A study of Mus musculus with 8 samples.

Results

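The enzymes described here carry the urea cycle, amino acid breakdown and gluconeogenesis of the liver, and they are known for being most abundant in hepatocytes near the portal vein. They were picked by gene symbol from the expression table, by a rule that uses no measured value, though with earlier results of these data known: Gls2, Nags, Cps1, Otc, Ass1, Asl, Arg1, Hal, Sds and Pck1, which are 10 of the 17164 genes listed. All 10 passed the filter on low values, an FPKM (a read density, corrected for the length of the gene and for library size) of at least 1 in at least 2 libraries, as did 11606 genes in all. RNA came from whole liver of male C57BL/6 mice killed at 22 weeks of age. There were 4 groups of 6 mice, and 2 livers of each group, taken at random, were sequenced, so each group has 2 libraries.

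Model mice received diethylnitrosamine (DEN, 0.67%) at 2 weeks of age, a carcinogen that hepatocytes activate, and from 8 weeks carbon tetrachloride (CCl4, 20% in olive oil), a hepatotoxin given 2 times a week to the end. Mice of the DWYG-M and DWYG-H groups went through the same course of DEN and CCl4 and were in addition dosed with Diwu Yanggan capsules (DWYG), which are made from medicinal herbs. Dosing began at 17 weeks, at the clinical equivalent dose for DWYG-M and at 2 times that dose for DWYG-H. Controls were injected with saline when the others got DEN. The sources used here do not say whether controls were given olive oil, nor whether the liver pieces held tumour. The tissue label was checked against 8 hepatocyte markers, with the member Cps1 among them. Their summed FPKM was 64558 to 100174 in model livers, 67900.0 to 91330 in DWYG-M, 80205 to 89033 in DWYG-H and 61598 to 69077 in control livers. Cps1 added 374 to 845 FPKM to these sums. Hepatocyte transcripts were abundant in all 8 libraries. Whole liver gives no position within the lobule, so the periportal part of the label rests on background knowledge and could not be checked.

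The urea cycle turns ammonia, which is toxic to the brain, into urea for excretion. Gls2, the liver glutaminase, frees ammonia from glutamine in the mitochondrion, and Nags makes N-acetylglutamate, without which Cps1 is inactive. Cps1 joins ammonia and bicarbonate to carbamoyl phosphate, and Otc passes the carbamoyl group to ornithine, giving citrulline. In the cytosol Ass1 and Asl turn citrulline into arginine, and Arg1 splits arginine into urea and ornithine. Hal removes ammonia from histidine and Sds from serine, and Pck1, the cytosolic phosphoenolpyruvate carboxykinase, feeds the carbon skeletons into glucose. Many of these genes are known to respond to glucagon, through cAMP and CREB, to glucocorticoids and to C/EBP factors in hepatocytes.

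The stretches of 250 bases just before the start site are shown for 3 members, picked with their RNA values known. Otc was lower in model livers, Hal followed it in direction without passing the test, and Pck1 followed none of the others. Whether these sequences bear on the RNA values was not tested. They are RefSeq sequences of mouse build GRCm38.p6, whereas the submitters' processing notes name GRCm39 for the reads. Otc lies at chrX:10252055-10252304, Hal at chr10:93488518-93488767 and Pck1 at chr2:173152823-173153072, all on the plus strand. Capitals mark matches, on either strand, to the letters searched.
Otc: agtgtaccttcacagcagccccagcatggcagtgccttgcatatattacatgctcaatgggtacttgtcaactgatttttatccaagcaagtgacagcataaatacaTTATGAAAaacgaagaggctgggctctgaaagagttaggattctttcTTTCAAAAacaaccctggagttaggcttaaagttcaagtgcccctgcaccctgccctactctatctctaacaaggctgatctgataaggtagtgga
Hal: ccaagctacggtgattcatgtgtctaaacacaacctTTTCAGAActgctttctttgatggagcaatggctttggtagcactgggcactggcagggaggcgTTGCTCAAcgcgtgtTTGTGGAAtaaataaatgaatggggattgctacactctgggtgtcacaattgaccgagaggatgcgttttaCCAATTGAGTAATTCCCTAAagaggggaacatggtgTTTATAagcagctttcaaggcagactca
Pck1: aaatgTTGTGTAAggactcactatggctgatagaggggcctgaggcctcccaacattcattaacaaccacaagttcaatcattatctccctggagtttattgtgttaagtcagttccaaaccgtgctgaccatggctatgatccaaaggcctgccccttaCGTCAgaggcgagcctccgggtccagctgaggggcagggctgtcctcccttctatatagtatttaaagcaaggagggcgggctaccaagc
The letters searched were TGACGTCA (the full cAMP response element), TGACG (its half-site), TTNNGNAA (a C/EBP pattern), CCAAT (the CCAAT box) and TATAAA (the TATA box). The half-site lies within the full element, and matches could overlap. Pck1 held the half-site on the reverse strand 90 bases before the start, and 17.9% of 27025 genes had it in the same window. Pck1 also held the C/EBP pattern 245 bases before the start. Otc held the C/EBP pattern 143 and 96 bases before the start, and Hal held it 5 times, together with a CCAAT box 64 bases before the start and a TATA box on the reverse strand, 28 bases before it. Of the 27025 genes, 36.9% had the C/EBP pattern, 34.5% the CCAAT box and 13.0% the TATA box in this window, so matches of this kind are common. The full cAMP element was found in none of these 3 windows, and 1.62% of all genes had it. Windows of Nags and Ass1 were also in the sequence table and are not printed, which makes 5 of the 10 members. Nags held the C/EBP pattern 231 bases before the start, and Ass1 held none of the letters searched.

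Read totals per library were 17345627 to 19191382 expected counts, and the 10 enzymes took 0.627% to 1.26% of them. Log2 values of the 2 livers of a group correlated over genes at r = 0.961 in the model group, 0.981 in DWYG-M, 0.978 in DWYG-H and 0.984 in the control group. The TMM scaling factors were 1.15 and 1.00 in model livers, 1.02 and 1.02 in DWYG-M, 1.015 and 1.04 in DWYG-H, against 0.925 and 0.848 in control livers. Fold changes below are from counts scaled by these factors, so model values lie lower against control than the FPKM values themselves do. Major urinary protein transcripts took 1.76% and 0.563% of counts in model livers and 15.3% and 15.45% in control livers. Markers of other cells moved with the groups as well. The summed FPKM of 6 cholangiocyte markers was 318 to 456 in model, 184 to 219 in DWYG-M and 234 to 278 in DWYG-H livers, against 38.4 to 41.3 in control livers. For 7 stellate cell and fibroblast markers it was 256 to 281, 188 to 228 and 176 to 190.5, against 94.0 to 94.3. For 6 neutrophil markers it was 56.6 to 200.1, 84.5 to 241 and 98.2 to 101, against 8.35 to 12.9, with 3 and 2 of these markers at 0 in the control livers and 1 in model replicate 2 and in DWYG-H replicate 2. Sums of 7 macrophage and 6 endothelial markers overlapped between model and control livers, at 194.0 to 299 against 178 to 222 and at 85.0 to 119.6 against 84.5 to 96.0. For 7 lymphocyte markers the sums were 10.02 to 11.3 in model and 3.98 to 8.49 in control livers. The part of these markers in the results on the enzymes was not tested, and in whole liver fewer hepatocytes cannot be told apart from less RNA per hepatocyte.

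Levels of the enzymes kept much the same order in every liver. Per length, Ass1 was the most abundant of the 10 and Nags the least abundant in all 8 libraries. Ass1 lay between rank 33 and rank 60 among the 11606 genes tested, and Nags between rank 1915 and rank 2835. Arg1 ranked 2 or 3 among the members, Cps1 ranked 3 or 4 and Pck1 ranked from 2 to 5, so these neighbours changed places from liver to liver and their order did not hold beyond the spread between livers. Otc, Asl and Gls2 came below them, apart from control replicate 1, where Otc exceeded Pck1, and likewise changed places. Hal and Sds stood near the bottom, with Hal below Sds in all 6 livers given DEN and CCl4 and above it in both control livers.

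**Figure D1:**
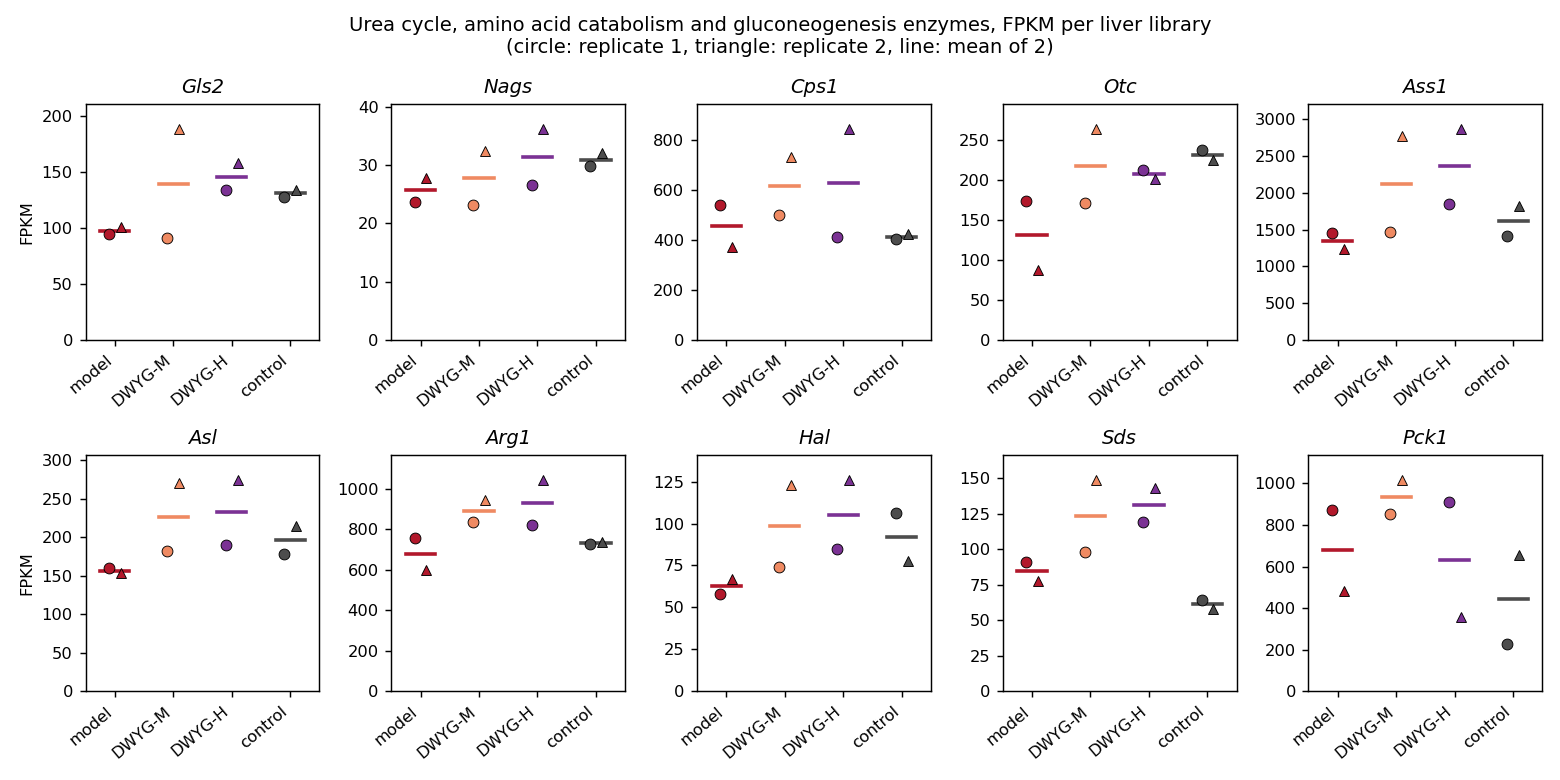
FPKM of the 10 enzymes in each of the 8 livers, with 1 panel per gene, circles for replicate 1, triangles for replicate 2 and a line at the mean of the 2. Both model livers lie below both control livers for Otc (173 and 87.95 against 237 and 225 FPKM) and above them for Sds (90.65 and 77.9 against 63.95 and 58.1), while the Pck1 points of model, DWYG-H and control livers are spread widely.

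Model livers against control livers asks what the DEN and CCl4 course did to these enzymes. Otc, the mitochondrial enzyme that makes citrulline, fell, and it was the member called. The other members did not pass the test. Of these, Gls2, Nags, Asl and Hal had lower FPKM in both model livers than in either control liver, Sds had higher FPKM in both, and Cps1, Ass1, Arg1 and Pck1 overlapped between the groups. Of the 10 members, 0 were called higher and 1 was called lower at an adjusted p under 0.05 in edgeR's quasi-likelihood test, and 2 had an unadjusted p under 0.05, Otc and Hal. Over all genes tested, 15.1% were called higher, 7.12% lower and 22.2% in either direction, and 35.9% had an unadjusted p under 0.05. The share of members called in either direction, 1 of 10, was below that of all genes, and with a single call it says nothing particular of the members. On the scaled log2 scale (log2 CPM with a prior count of 2), the libraries of 7 members lay wholly lower in model livers and those of 1 member wholly higher, against 29.2% and 30.3% of all genes. The median log2 fold change of the members was -0.54, and that of all genes was -0.01.

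Of the mitochondrial steps, Gls2 had 94.3 and 101 FPKM in model livers, against 128 and 134 in control livers. Both model livers were below both control livers. Its log2 fold change was -0.69 (SE 0.32, adjusted p = 0.164, edgeR), which did not pass. Nags had 23.7 and 27.9 FPKM in model livers, against 29.8 and 32.1 in control livers, again without overlap, at a log2 fold change of -0.52 (SE 0.24, adjusted p = 0.154). Cps1, the entry enzyme of the cycle, had 541 and 374 FPKM in model livers, against 403 and 424 in control livers. The control values lay between the model values, and the log2 fold change was -0.14 (SE 0.37, adjusted p = 0.819). The sign for Cps1 turned to 0.12 with limma on FPKM and to 0.02 without model replicate 2.

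Otc had 173 and 87.95 FPKM in model livers, a mean of 131 ± 60.2 (SD, n = 2), against 237 and 225 in control livers, a mean of 231 ± 8.71 (SD, n = 2). The model livers lay below the control livers and far from each other, with replicate 2 the lower. The log2 fold change was -1.13 (SE 0.30, adjusted p = 0.0322, edgeR), with a 95% interval of -1.82 to -0.43, which is 2.18-fold lower in model livers. The adjusted p rose above 0.05 when a single liver was left out, to 0.0988 (control replicate 1), 0.113 (control replicate 2), 0.118 (model replicate 2, with a log2 fold change of -0.79) or 0.0547 (DWYG-H replicate 2). The call was also missed with only the model and control libraries in the fit (0.0600) and with limma on log2(FPKM + 1) (0.0829). DESeq2 kept it and called Hal as well (adjusted p = 0.0356).

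In the cytosol, Ass1 had 1455 and 1231 FPKM in model livers, against 1415 and 1822 in control livers. The FPKM values overlapped, while the scaled log2 values did not, at a log2 fold change of -0.55 (SE 0.37, adjusted p = 0.318). Asl had 159.8 and 153 FPKM in model livers, against 178 and 214 in control livers, with no overlap, at a log2 fold change of -0.59 (SE 0.26, adjusted p = 0.143). Arg1 had 756 and 599 FPKM in model livers, against 726 and 739 in control livers, a pattern in which 1 model liver lay above both control livers. Its log2 fold change was -0.39 (SE 0.21, adjusted p = 0.217). None of the 3 cytosolic steps passed. On the TPM scale, where the median of all genes itself was 0.50 on the log2 scale (0.21 on FPKM), Ass1, Asl, Arg1, Nags and Cps1 turned positive, at 0.06, 0.00, 0.20, 0.06 and 0.45. Set against the median of all genes, 8 members lay below it and 2 above it under each of the scalings tried.

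Hal and Sds both free ammonia from an amino acid, and neither passed the test. Hal had 58.1 and 66.85 FPKM in model livers, against 106 and 77.85 in control livers. Both model livers lay below, though the control livers differed from each other more than the nearer of them did from the model livers. The log2 fold change was -0.81 (SE 0.30, adjusted p = 0.0922). Sds had 90.65 and 77.9 FPKM in model livers, against 63.95 and 58.1 in control livers, both higher, at a log2 fold change of 0.19 (SE 0.21, adjusted p = 0.549). With limma on log2(TPM + 1), where the median of all genes lay at 0.50, Sds was called higher (0.78, adjusted p = 0.0202) and Otc was not called (adjusted p = 0.167). Pck1 had 873 and 483 FPKM in model livers, against 225 and 658 in control livers. Its groups overlapped, its log2 fold change was 0.29 with an SE of 0.59, and its adjusted p was 0.767. The sign for Pck1 turned to -0.32 without control replicate 1 and to -0.05 without model replicate 1.

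**Figure D2:**
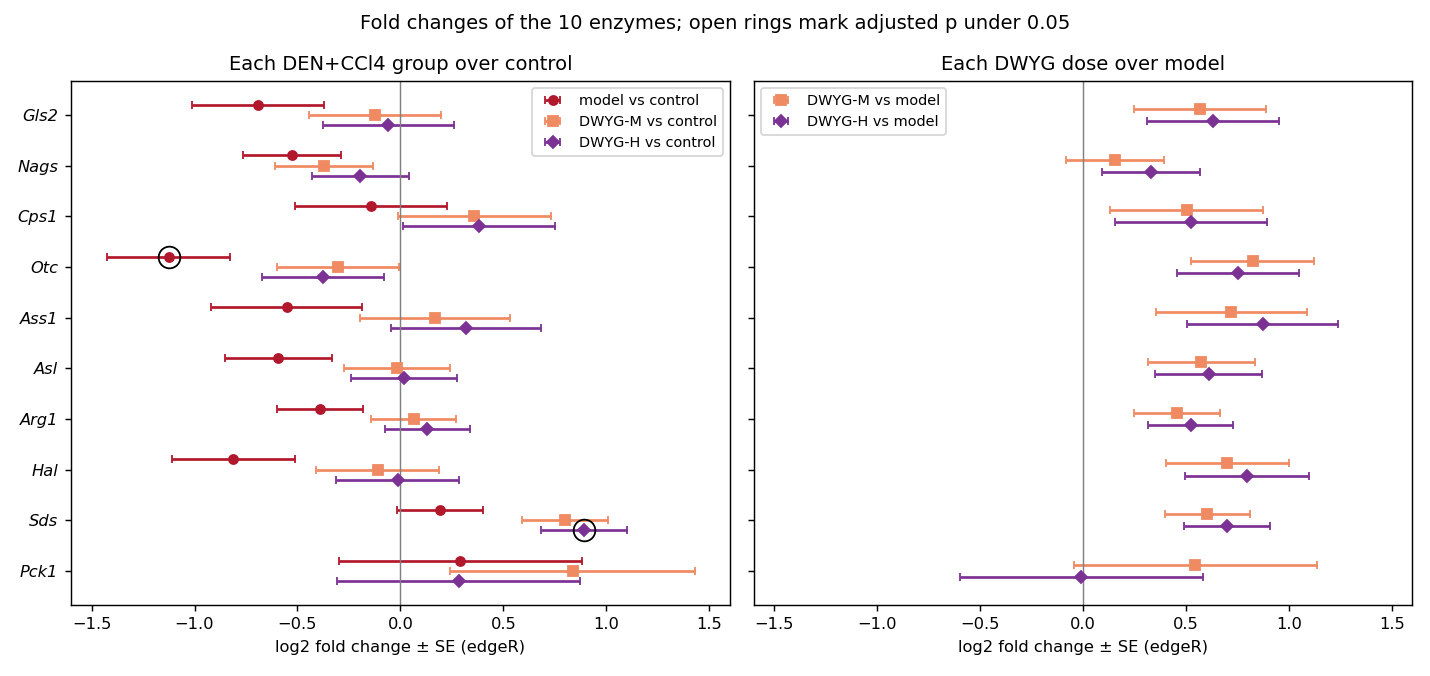
Log2 fold changes with their standard errors for each enzyme, with model, DWYG-M and DWYG-H over control on the left and DWYG-M and DWYG-H over model on the right. Open rings mark the 2 values with an adjusted p under 0.05, Otc in model over control (-1.13) and Sds in DWYG-H over control (0.89), while on the right all values but Pck1 in DWYG-H (-0.01) lie above 0 and none is ringed.

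Ratios within a library do not depend on how libraries are scaled, and a pair of them was chosen after the values had been seen. The FPKM ratio of Otc to Cps1, successive steps of the cycle, was 0.320 and 0.235 in model livers, 0.344 and 0.360 in DWYG-M livers and 0.516 and 0.239 in DWYG-H livers, against 0.589 and 0.530 in control livers. All 6 livers given DEN and CCl4 were below both control livers, although DWYG-H replicate 1 came close. The FPKM ratio of Sds to Hal was 1.56 and 1.17 in model livers, 1.33 and 1.21 in DWYG-M livers and 1.40 and 1.14 in DWYG-H livers, against 0.602 and 0.747 in control livers. Sds exceeded Hal in each of the 6 livers given DEN and CCl4, and Hal exceeded Sds in both control livers. These ratios are descriptions and have no test.

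**Figure D3:**
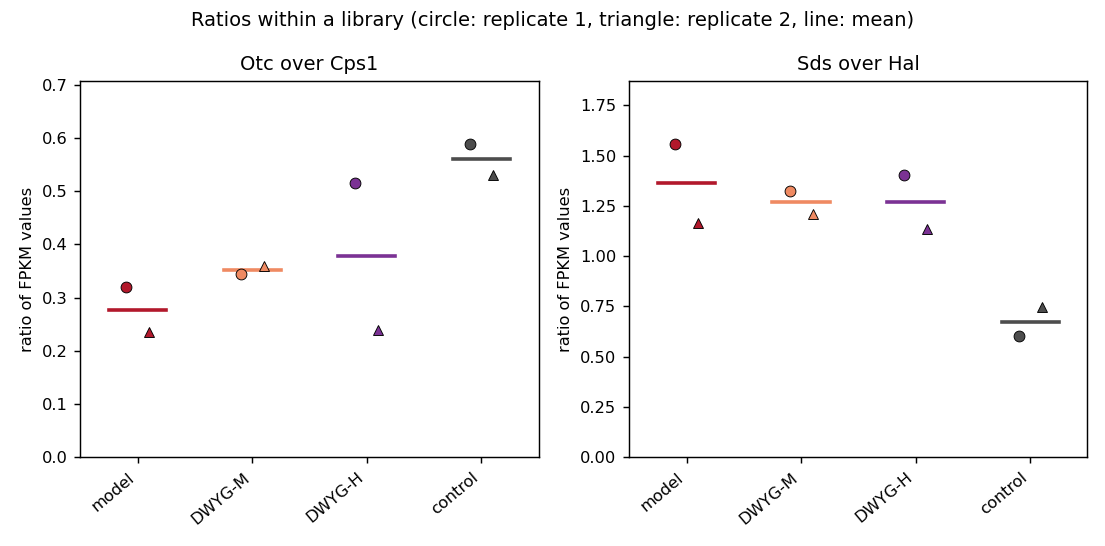
Ratios of FPKM values within each liver, Otc over Cps1 on the left and Sds over Hal on the right, with circles for replicate 1, triangles for replicate 2 and a line at the mean. For Otc over Cps1 the control livers (0.589 and 0.530) lie above all others, and for Sds over Hal they (0.602 and 0.747) lie below all others.

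DWYG livers against control livers asks how far the enzymes stood from saline controls at the end of DWYG treatment. At DWYG-M 0 members were called by edgeR, against 4.95% of all genes (4.35% higher, 0.603% lower), and 1 had an unadjusted p under 0.05, Sds, against 19.2%. At DWYG-H 1 member was called, Sds, which was higher, against 7.69% of all genes (6.59% higher, 1.09% lower), and it was also the 1 member with an unadjusted p under 0.05, against 23.8%. Both comparisons share the control libraries with the comparison of model and control, so they are not independent of it. The median log2 fold change of the members was 0.02 at DWYG-M and 0.07 at DWYG-H, and that of all genes was -0.01 at both.

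Sds, serine dehydratase, had 97.8 and 148 FPKM in DWYG-M livers and 119 and 143 in DWYG-H livers, against 63.95 and 58.1 in control livers. All 4 DWYG livers were above both control livers. The log2 fold change over control was 0.80 (SE 0.21, adjusted p = 0.0757) at DWYG-M and 0.89 (SE 0.21, adjusted p = 0.0412) at DWYG-H. Its mean was 131 ± 17.0 FPKM in DWYG-H livers and 61.0 ± 4.12 in control livers (SD, n = 2 each). With any 1 of the 4 livers of this comparison left out, DWYG-H was no longer called, at an adjusted p of 0.163 (control replicate 1 left out), 0.222 (control replicate 2), 0.0972 (DWYG-H replicate 1) or 0.183 (DWYG-H replicate 2). At DWYG-M it was made by DESeq2, by limma on FPKM or TPM, and without DWYG-M replicate 1. Otc had 172 and 264 FPKM in DWYG-M livers and 212 and 202 in DWYG-H livers, against 237 and 225 in control livers. Its log2 fold change over control was -0.30 (SE 0.30, adjusted p = 0.633) at DWYG-M, where the groups overlapped, and -0.37 (SE 0.30, adjusted p = 0.498) at DWYG-H, where both livers lay below both controls. On the TPM scale both signs turned, to 0.13 and 0.11. In scaled log2 values, 2 members (Sds and Pck1) lay wholly higher and 1 (Nags) wholly lower at DWYG-M, against 28.9% and 25.3% of all genes. At DWYG-H Sds lay wholly higher and Otc wholly lower, 1 member each, against 29.6% and 26.8%.

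DWYG livers against model livers asks what the capsules changed in animals with the same DEN and CCl4 course. No member was called at either dose. At DWYG-M all 10 members had a log2 fold change above 0, from 0.15 for Nags to 0.82 for Otc, with a median of 0.57, and at DWYG-H 9 members did, from -0.01 for Pck1 to 0.87 for Ass1, with a median of 0.62. The median of all genes was -0.02 at DWYG-M and -0.01 at DWYG-H. The lowest adjusted p among the members was 0.313 at DWYG-M and 0.433 at DWYG-H, both for Sds. Among all genes edgeR called 0.00862% (1 gene) at DWYG-M and 0% (0 genes) at DWYG-H. DESeq2 called 206 and 120 genes, and 0 members among them. With an unadjusted p under 0.05 there were 3 members at DWYG-M (Otc, Hal and Sds), against 12.6% of all genes, and 6 at DWYG-H (these 3 with Ass1, Asl and Arg1), against 8.49%. The 2 comparisons share the model libraries, so a low value in a model liver enters both.

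For the mitochondrial steps, Gls2 had 90.7 and 189 FPKM in DWYG-M livers and 134 and 158 in DWYG-H livers, against 94.3 and 101 in model livers. The DWYG-M livers lay on both sides of the model livers, and the DWYG-H livers lay above them. The log2 fold change of Gls2 was 0.57 (SE 0.32) at DWYG-M and 0.63 (SE 0.32) at DWYG-H. Nags had 23.2 and 32.5 FPKM in DWYG-M livers and 26.6 and 36.25 in DWYG-H livers, against 23.7 and 27.9 in model livers, with overlap at both doses and log2 fold changes of 0.15 (SE 0.24) and 0.33 (SE 0.24). Cps1 had 499 and 732 FPKM in DWYG-M livers and 411 and 845 in DWYG-H livers, against 541 and 374 in model livers. Its FPKM values overlapped at both doses, at log2 fold changes of 0.50 (SE 0.37) and 0.52 (SE 0.37). For Otc the values given above lay above model replicate 2 in all 4 DWYG livers, while DWYG-M replicate 1 was level with model replicate 1 (172 against 173 FPKM). Its log2 fold change was 0.82 (SE 0.30, adjusted p = 0.331) at DWYG-M and 0.75 (SE 0.30, adjusted p = 0.556) at DWYG-H.

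For the cytosolic steps the 4 DWYG livers lay above both model livers in FPKM. Ass1 had 1473 and 2769.9 FPKM in DWYG-M livers and 1851 and 2870.0 in DWYG-H livers, against 1455 and 1231 in model livers, at log2 fold changes of 0.72 (SE 0.37, adjusted p = 0.465) and 0.87 (SE 0.37, adjusted p = 0.578). Asl had 182 and 269.7 FPKM in DWYG-M livers and 190.4 and 274 in DWYG-H livers, against 159.8 and 153 in model livers, at log2 fold changes of 0.58 (SE 0.26) and 0.61 (SE 0.26). Arg1 had 837 and 944 FPKM in DWYG-M livers and 821 and 1041 in DWYG-H livers, against 756 and 599 in model livers, at log2 fold changes of 0.46 (SE 0.21) and 0.52 (SE 0.21). The gap between the groups was small beside the gap within a DWYG group for Ass1, whose 2 DWYG-M livers differed by more than DWYG-M replicate 1 did from either model liver.

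Hal had 73.8 and 123 FPKM in DWYG-M livers and 84.7 and 126 in DWYG-H livers, against 58.1 and 66.85 in model livers. Sds, with the DWYG values given above, had 90.65 and 77.9 FPKM in model livers. All 4 DWYG livers were above both model livers for both enzymes. Hal had log2 fold changes of 0.70 (SE 0.30) and 0.80 (SE 0.30) and Sds of 0.60 (SE 0.21) and 0.70 (SE 0.21) at DWYG-M and DWYG-H. Pck1 had 854 and 1015 FPKM in DWYG-M livers and 908 and 358 in DWYG-H livers, against 873 and 483 in model livers. Its FPKM values overlapped with those of the model livers at both doses, at log2 fold changes of 0.55 (SE 0.59) and -0.01 (SE 0.59), and the value at DWYG-H turned to 0.52 without DWYG-H replicate 2. On scaled log2 values, 8 members lay wholly above the model livers at DWYG-M and 7 at DWYG-H, against 20.4% and 17.2% of all genes.

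With both doses together against the model livers, 0 members were called, against 0.0345% of all genes (4 genes, 0.00862% higher and 0.0258% lower). All 10 had a log2 fold change above 0, with a median of 0.60, 6 had an unadjusted p under 0.05 against 13.9% of all genes, and the lowest adjusted p was 0.215, for Sds. In 6 members all 4 DWYG libraries lay above both model libraries on the scaled log2 scale, against 12.5% of all genes. Most members varied together across the livers, as given below. Counts of members, here and in the other comparisons, are therefore not counts of independent genes.

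The size of these differences rested on single livers. In DWYG-M, replicate 2 was above replicate 1 for 10 of 10 members, by a median of 0.59 on the log2 scale, while 50.6% of all genes were higher in replicate 2. In DWYG-H it was above for 8 of 10 members, by a median of 0.37 (49.9% of all genes). In the model group 4 of 10 were higher in replicate 2, at a median of -0.03, and in the control group 8 of 10, at a median of 0.20. Without DWYG-M replicate 2 the median log2 fold change of DWYG-M over model was 0.27, and Gls2 and Nags had values of -0.06 and -0.11. Without DWYG-M replicate 1 the median was 0.85. At DWYG-H the median was 0.51 without replicate 2 and 0.79 without replicate 1.

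DWYG-H against DWYG-M asks whether the larger dose differed from the smaller. No member was called, 0 had an unadjusted p under 0.05 and 0 had libraries without overlap, against 0%, 1.66% and 26.7% of all genes, and DESeq2 called 5 genes, with 0 members. The log2 fold changes of DWYG-H over DWYG-M ran from -0.55 for Pck1 to 0.18 for Nags, with a median of 0.07. The 95% interval was -1.92 to 0.81 for Pck1, and for the other members the intervals lay between -0.83 and 0.99, so differences of up to these sizes could not be seen with 2 livers a dose. The sign also depended on single livers, with 8 of 10 members above 0 in all and 0 of 10 without DWYG-M replicate 1 or without DWYG-H replicate 2.

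Across the 8 livers most of the enzymes varied together. On scaled log2 values, Ass1 and Asl, successive steps of the cycle, had the highest Pearson correlation of any pair (r = 0.953, n = 8 libraries). The closest member was Asl for Gls2 (r = 0.912), Ass1 for Arg1 (0.910) and for Cps1 (0.837), Gls2 for Hal (0.897) and for Nags (0.868), Arg1 for Otc (0.762) and Cps1 for Sds (0.693). Pck1 stood apart, since its highest correlation was 0.269, with Sds, and its median over the other members was -0.01. These values come from the same 8 libraries, share their scaling and mix differences between groups with those between livers of a group. The mean of the standardised members was -0.93 and -0.98 in model livers, -0.39 and 1.06 in DWYG-M livers, 0.05 and 0.86 in DWYG-H livers and -0.15 and 0.47 in control livers. The 2 model livers were the lowest on this scale and DWYG-M replicate 2 the highest.

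Among 7043 genes with a mean FPKM of at least 5, members left out, the 6 whose values followed this mean most closely were Afmid (r = 0.978, n = 8 libraries), Cpped1 (0.976), Car14 (0.966), Hgd (0.957), Tmem14c (0.949) and Sema4g (0.944). Afmid, arylformamidase, acts in the breakdown of tryptophan, and Hgd, homogentisate dioxygenase, in that of tyrosine. They were picked as the 6 highest of 7043 over only 8 libraries, and the values are a description.

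Other genes of nitrogen metabolism were read in 8 lists. In model livers against control livers, of 13 tested partners of the urea cycle (carriers, carbonic anhydrase, transaminases) 1 was called higher and 3 lower, with a median log2 fold change of -0.33. Among 17 genes of histidine, serine, threonine and glycine breakdown, 0 were higher and 4 lower (median -0.52). Of 14 genes of phenylalanine, tyrosine and tryptophan breakdown, 0 were higher and 4 lower (median -0.66), and of 27 genes of branched-chain amino acid, lysine, proline and methionine breakdown, 0 were higher and 12 lower, with all 27 below 0 and a median of -0.77. Over all genes 15.1% were called higher and 7.12% lower. For gluconeogenesis 1 of 10 was called higher and 1 lower, and for regulators of these enzymes 1 of 18 higher and 3 lower. These counts depended on single livers. Without control replicate 2 the 4 amino acid and urea lists had 0, 0, 0 and 1 calls, without model replicate 2 they had 1, 1, 0 and 4, and without control replicate 1 they had 2, 0, 0 and 6, in the order given. With limma on log2(FPKM + 1) the calls were 3, 0, 0 and 3, while DESeq2 made 4, 7, 7 and 16.

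**Figure D4:**
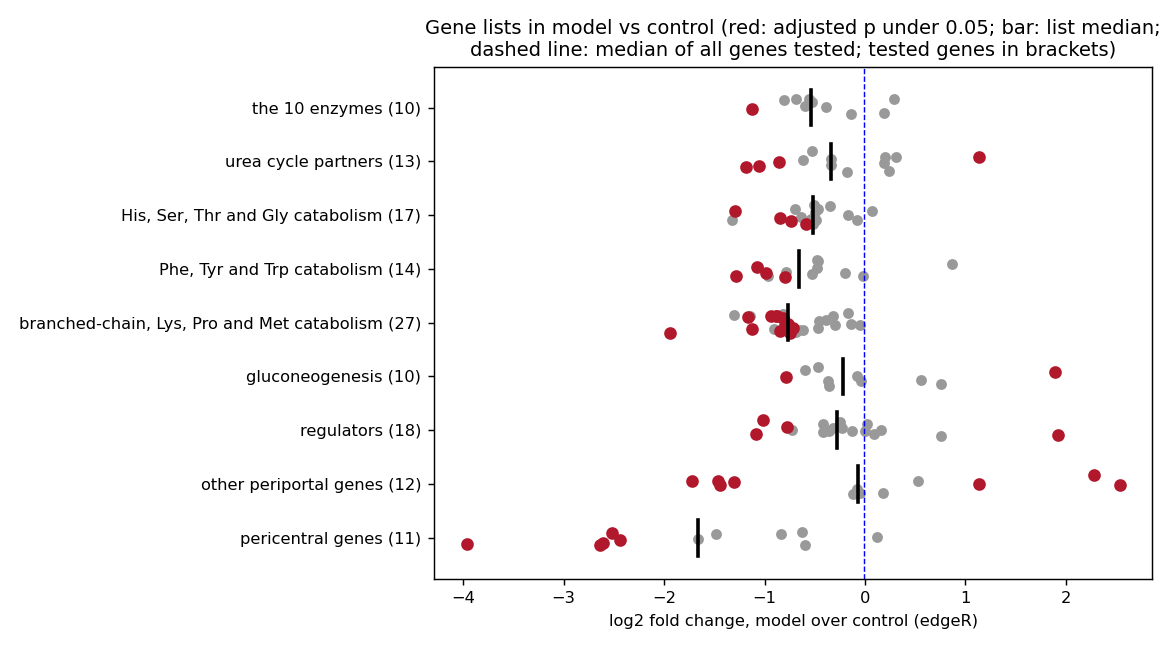
Log2 fold changes of model over control livers for every tested gene of 9 lists, with the number tested in brackets, red points for an adjusted p under 0.05, a black bar at the list's median and a dashed line at the median of all genes (-0.01). The branched-chain, lysine, proline and methionine list lies wholly below 0 (median -0.77), and the pericentral list reaches furthest down (median -1.66).

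Several named genes of these lists lie directly beside the members. Aadat, which transaminates aminoadipate in the breakdown of lysine, had 39.4 and 24.7 FPKM in model livers, against 85.4 and 115.5 in control livers. Its log2 fold change was -1.94 (SE 0.29, adjusted p = 0.00377, edgeR), and it stayed called under every alternative tried. Aqp9, a channel for glycerol and urea, had 136 and 95.8 FPKM in model livers, against 195 and 199.7 in control livers, at -1.05 (SE 0.23, adjusted p = 0.0167). Car5a, the mitochondrial carbonic anhydrase that supplies Cps1 with bicarbonate, had 30.6 and 16.5 FPKM in model livers, against 41.9 and 45.15 in control livers, at -1.18 (SE 0.29, adjusted p = 0.0244). Tdo2, the first enzyme of tryptophan breakdown, had 807 and 379.5 FPKM in model livers, against 1305 and 1048 in control livers, at -1.28 (SE 0.33, adjusted p = 0.0286). All 4 genes were lower in both model livers than in either control liver. The calls of Aqp9, Car5a and Tdo2 were lost without control replicate 1, control replicate 2 or model replicate 2, and with limma on log2(TPM + 1). Those of Car5a and Tdo2 were also lost with limma on FPKM, and that of Tdo2 with only the groups compared.

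Paralogs of Pck1, Sds and Arg1 were low in all livers. Pck2, the mitochondrial carboxykinase, had 4.36 and 6.56 FPKM in model livers, against 1.57 and 1.01 in control livers, and was called higher at 1.89 (SE 0.38, adjusted p = 0.0119, edgeR), which was lost without control replicate 1 or control replicate 2 (adjusted p up to 0.0928). Sdsl, a paralog of Sds, had 9.11 and 12.05 FPKM in model livers, against 10.8 and 9.83 in control livers, with overlap and a log2 fold change of -0.17 (SE 0.26, adjusted p = 0.687). Arg2, the mitochondrial arginase, did not pass the filter and had 0.760 and 1.09 FPKM in model livers, against 0.250 and 0.160 in control livers.

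Among genes that regulate these enzymes, Irs2, an adaptor of insulin signalling that cAMP also induces, had 3.75 and 3.70 FPKM in model livers, 3.34 and 2.46 in DWYG-M livers and 2.79 and 4.90 in DWYG-H livers, against 0.950 and 0.690 in control livers. Both control values lay under the filter's FPKM of 1, so Irs2 passed the filter only through the livers given DEN and CCl4. It was called higher in model livers (log2 fold change 1.93, SE 0.29, adjusted p = 0.00424, edgeR), under every alternative tried. It was also called at DWYG-M (1.62, adjusted p = 0.0230) and at DWYG-H (2.03, adjusted p = 0.00843), calls that were lost without either control liver and, at DWYG-M, without DWYG-M replicate 1 (adjusted p up to 0.164 at DWYG-M and 0.0897 at DWYG-H). Cebpa, a hepatocyte member of the C/EBP family, had 74.8 and 87.4 FPKM in model livers, against 140.1 and 146.9 in control livers, at a log2 fold change of -1.09 (SE 0.30, adjusted p = 0.0365). The call for Cebpa was lost without either model liver, either control liver or either DWYG-H liver, and with limma, with adjusted p up to 0.148. G6pc, which releases glucose at the end of gluconeogenesis, had 298 and 157 FPKM in DWYG-M livers and 236 and 239 in DWYG-H livers, against 56.2 and 69.2 in control livers, all 4 higher. It was called at DWYG-M (log2 fold change 1.64, SE 0.34, adjusted p = 0.0359) and at DWYG-H (1.70, SE 0.34, adjusted p = 0.0247). Both calls were lost without either control liver and without either DWYG-H liver, and the DWYG-M call also without DWYG-M replicate 1, with adjusted p up to 0.210 at DWYG-M and 0.144 at DWYG-H. Model livers had 167 and 94.95 FPKM of G6pc.

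In DWYG livers against model livers no gene of the 8 lists was called by edgeR at either dose. All 14 genes of phenylalanine, tyrosine and tryptophan breakdown had log2 fold changes above 0 at both doses (medians 0.56 and 0.53 at DWYG-M and DWYG-H), and so did 25 and 27 of the 27 genes of the branched-chain, lysine, proline and methionine list (0.64 and 0.50), while the median of all genes was -0.02 and -0.01. For the histidine, serine, threonine and glycine list it was 16 and 17 of 17 (0.39 and 0.46), and for the urea cycle partners 11 of 13 at both doses (0.25 and 0.29). In gluconeogenesis it was 7 and 5 of 10, and among the regulators 13 of 18 at both doses (0.16 and 0.19). For the other periportal genes it was 7 and 5 of 12 (0.18 and -0.02). The pericentral list had the highest medians of the 8, with 10 and 11 of 11 genes above 0 (1.09 and 0.67), so the direction was not particular to periportal genes. As with the members, these comparisons share the 2 model libraries.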

How the data were processed

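RNA sequencing of 8 livers was read from 1 deposited table of 17164 genes. Per the file headers, each library has 4 columns, for reads, FPKM, TPM and normalized reads. What the authors deposited as reads are expected counts by their values, because about 90% were whole numbers (89.8% to 91.5% per library, tolerance 0.005). FPKM and TPM had been corrected for gene length and library size before they were deposited, per the file headers. The signal values that the authors deposited as normalized counts were used only to read their scaling factors, and 16 columns of group averages were not used. Per the submitters' processing notes the build was GRCm39. Which aligner and counter were used, and whether by strand, is not given in the sources used here.

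Expected counts were rounded and tested with edgeR 4.0.16 (R 4.3.3; glmQLFit, glmQLFTest, TMM) in 1 model of 4 groups over 8 libraries, with 4 residual degrees of freedom. A gene entered if its FPKM reached 1 in 2 or more libraries, and Benjamini-Hochberg adjustment ran over all 11606 genes in each of 7 comparisons. An adjusted p under 0.05 was a call, and adjusted p-values are edgeR's unless another tool is named. Standard errors were derived from the F statistic. DESeq2 1.42.0, limma 3.58.1 on log2(FPKM + 1), log2(FPKM + 0.1) and log2(TPM + 1), other scalings and filters, a fit of only the groups compared and leaving out each library were alternatives. In the fit reported, p-values rest on the spread between the 2 livers within all 4 groups together, drawn in part from other genes.

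Besides the 10 members, the rule for naming took from each list up to 3 called genes per direction and comparison with the smallest p, 6 genes by likeness, 4 paralogs of members and the pericentral genes Glul and Oat, of which the text gives some; 1 of the paralogs is not reported here. Lists and members were chosen with earlier results of these data known. Of the 17164 gene IDs, 17052 were in a reference table, 17038 with the same symbol.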

Additional observations from a re-analysis of the deposited data

How the results depend on the processing

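Over 34 member fold changes and the 18 alternatives tried, 591 of 612 values kept their direction. The 34 were all 10 members in model over control and in each dose over model, with Sds and Otc in each dose over control. Some values could hardly turn, as the library left out lay outside the groups compared. Other member fold changes were not counted. Among these, Gls2, Nags, Asl and Hal turned in DWYG-M over control on log2(TPM + 1). Without DWYG-H replicate 2, 4 turned in DWYG-H over control and 8 in DWYG-H over DWYG-M. In model against control livers, edgeR called 1 member, DESeq2 called 2, and limma on log2(FPKM + 1), limma on log2(FPKM + 0.1) and edgeR on only the groups compared called 0. Limma on log2(TPM + 1) called 1, but it was Sds, as higher, and not Otc. Leaving out 1 library gave 0 to 1. Cps1 turned to 0.12 with limma at both FPKM settings and to 0.45 on log2(TPM + 1), with -0.30 to 0.017 on leaving out 1 library. On log2(TPM + 1), Nags turned to 0.058, Ass1 to 0.062, Asl to 0.0040, Arg1 to 0.20 and Amdhd1, of the histidine list, to 0.022, while the median of all genes moved to 0.50. Pck1 ranged from -0.32 to 1.32 on leaving out 1 library.

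In DWYG-M against control livers, DESeq2 and all 3 limma fits called 1 member in place of 0, leaving out 1 library gave 0 to 1, and Otc turned to 0.13 on TPM. In DWYG-H against control livers, limma on TPM called 2 in place of 1, leaving out 1 library gave 0 to 1, and Otc turned to 0.11 on TPM. Against model livers no alternative called a member. On leaving out 1 library at DWYG-M, Gls2 ranged from -0.057 to 1.00 and Nags from -0.11 to 0.385. At DWYG-H Cps1 ranged from -0.066 to 0.96 and Pck1 from -0.84 to 0.52, and Pck1 turned to 0.026 without a filter and to 0.027 with edgeR's filterByExpr. The cause of these changes was not tested.

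The labels do not say whether replicate numbers pair livers across groups, and 2 livers a group cannot decide it. Correlations of same-numbered deviations ran from -0.14 to 0.26. With a replicate block edgeR called 3 members in model against control, adding Nags and Asl, all lower. The same fit called 2682 of the 11606 genes tested, 65.4% of them higher. Over all genes, calls in model against control were 2582 in the fit reported, 1669 with only the groups compared and 5448 with limma on TPM, and 812 without control replicate 2. Of these, 68.0%, 80.5%, 97.5% and 78.6% were higher in model livers, and 91.7% with limma on log2(FPKM + 1). With both doses against model livers, DESeq2 called 321 genes and edgeR 4. Each group had 2 livers, and the common dispersion was 0.0377.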

Other observations

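Other zonation genes of the liver lobule were read from lists on the same terms, and the difference of these lists from the 10 enzymes was not tested. In model over control livers the median log2 fold change of 11 pericentral genes was -1.66, beside -0.01 for all genes. Of the 11, 0 were called higher and 5 lower, against 15.1% and 7.12% of all genes. The count was 3 without control replicate 2 and 4 without model replicate 2. Glul, glutamine synthetase, which takes up the ammonia that the periportal cycle leaves, had 119 and 49.2 FPKM in model livers, 149 and 270.3 in DWYG-M livers and 91.9 and 200.5 in DWYG-H livers, against 448 and 399 in control livers. All 6 livers given DEN and CCl4 lay below both control livers. The log2 fold change of Glul in model over control was -2.64 (SE 0.50, adjusted p = 0.00947, edgeR) and held under every alternative tried, and over model it was 1.42 (SE 0.48, adjusted p = 0.306) at DWYG-M and 0.89 (SE 0.47, adjusted p = 0.658) at DWYG-H. Slc1a2, a glutamate carrier of the same cells, had 3.39 and 1.17 FPKM in model livers, against 36.6 and 32.5 in control livers, at -3.97 (SE 0.53, adjusted p = 0.00253). Cyp2e1, which activates CCl4, had 1506 and 678 FPKM in model livers, against 4615 and 5500.2 in control livers, at -2.52 (SE 0.40, adjusted p = 0.00479). Both calls held under every alternative tried. Oat, ornithine aminotransferase, had 123 and 108 FPKM in model livers, against 531 and 634 in control livers, at -2.61 (SE 0.58, adjusted p = 0.0171), a call lost without control replicate 2 and without either model liver (highest adjusted p 0.0773).

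Of 12 other periportal genes, 3 were called higher and 4 lower in model livers, against 15.1% and 7.12% of all genes. Their median was -0.06, and fewer were called without control replicate 1, control replicate 2 or model replicate 2. Cyp2f2 (log2 fold change -1.72, adjusted p = 0.0172, edgeR) and Pigr (-1.46, adjusted p = 0.0185) were among those called lower. Apoa4 (2.54, adjusted p = 0.0436) and Cdh1 (1.14, adjusted p = 0.0443) were among those called higher. Each of these calls was lost on leaving out any of those livers. Aldh1b1, a mitochondrial aldehyde dehydrogenase, had 81.9 and 122 FPKM in model livers, 55.3 and 105.5 in DWYG-M livers and 83.2 and 97.0 in DWYG-H livers, against 17.3 and 18.1 in control livers, and was called higher in model livers at a log2 fold change of 2.28 (SE 0.36, adjusted p = 0.00471, edgeR) under every alternative tried. It was also called higher at DWYG-M (1.97, adjusted p = 0.0224) and DWYG-H (2.13, adjusted p = 0.0133), and both calls were lost without either control liver or without replicate 2 of the dose (adjusted p up to 0.153 and 0.106). Hsd17b6, a steroid dehydrogenase, had 121 and 66.9 FPKM in model livers, 101 and 115 in DWYG-M livers and 67.1 and 57.2 in DWYG-H livers, against 205 and 173 in control livers. It was called lower in model livers (-1.30, SE 0.23, adjusted p = 0.00778), lost only with limma on TPM (adjusted p = 0.0566), and in DWYG-H livers (-1.81, SE 0.24, adjusted p = 0.00607) under every alternative tried. In DWYG-M livers it was called lower as well (-1.02, SE 0.23, adjusted p = 0.0463), a call lost in 10 of 18 alternatives, among them leaving out either control, either DWYG-M or either DWYG-H liver (adjusted p up to 0.292). The part of cholangiocyte, stellate cell and neutrophil transcripts in these values was not tested.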
